A study of Mus musculus with 2 samples.

Results

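The genes described here encode the machinery of the lysosome: acid hydrolases, their activators, membrane proteins and the subunits of the vacuolar proton pump (V-ATPase). Of 44 listed mouse genes, each was used when at least 1 Affymetrix probe set named it and no other gene. This held for 41 of the 44, out of 12393 genes with such a probe set on the arrays. Arsb, Cd63 and Atp6v0c were not analysed here. The 41 genes comprised 19 hydrolases, 3 activators and related soluble proteins, 6 membrane proteins and 13 pump subunits, measured by 83 probe sets.

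Lysosomes are acidic organelles that break down material delivered by endocytosis, phagocytosis and autophagy. Hydrolases are tagged with mannose 6-phosphate in the Golgi, carried to the lysosome by receptors, and work at the low pH that the V-ATPase maintains by pumping protons at the cost of ATP. In bone the same machinery is known above all from osteoclasts, which acidify the bone surface, and from macrophages, which are rich in lysosomes, while osteoblasts use it for the turnover of matrix and membrane.

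The samples were calvarial osteoblasts, grown out of the skull vault of C57Bl/6 mice aged 4 to 5 days after digestion with trypsin and collagenase. The first array held cells of mice carrying the transgene Col1-Dlk1, which overexpresses Dlk1, a membrane protein related to Notch ligands, and whose promoter is given only by that name. These cells were sorted for Dlk1 on the cell surface. The second array held cells of wild-type mice, and the sources used here do not say whether those cells were sorted. For each genotype 3 cultures were combined on 1 array, so neither genotype has a replicate and the spread between cultures is unknown. The comparison asks how the levels of these genes differ between osteoblasts that overexpress Dlk1 and wild-type osteoblasts.

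Wherever a pair of intensities is given below, the first is from the array labelled Col1-Dlk1 and the second from that labelled wild type. Median probe-set intensities were close, at 43.8 and 41.5. The targeted gene went against its label: Dlk1 read 26.5 and 306. All directions are those of the labels, and exchanged labels would turn each of them round. Of 12 osteoblast markers measured, 7 lay below the level threshold of 42.8, among them Sp7 (38.2 and 40.1) and Ibsp (2.86 and 1.37), and 6 had a difference above 0. Col1a1 (1772 and 1462), Col1a2 (6261 and 7071) and Sparc were within 2-fold, Msx2 (474 and 29.5) was higher and Omd (34.9 and 102) lower. Of 11 fibroblast and progenitor markers, 8 were within 2-fold, Fap was higher, and Cd34 (21.2 and 162) and Pdgfra (99.0 and 375) were lower. Runx2 was not analysed here. The ratio of 3′ to 5′ signal was 0.89 and 0.82 for Gapdh and 1.53 and 1.29 for beta-actin.

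Macrophage markers differed between the arrays far more than the lysosomal genes did. Of 25 macrophage markers with a value, 22 were higher on the array labelled Col1-Dlk1 by 2-fold or more with an intensity past the level threshold, and the summed intensity of the list was 24128 and 353. Csf1r, the receptor for macrophage colony-stimulating factor, read 1227 and 43.3, and Ptprc, the leukocyte surface gene CD45, read 485 and 16.7. Of these 22 markers, 21 had a wild-type intensity below 42.8, so they passed the threshold only through the array labelled Col1-Dlk1. The highest wild-type intensity in the list was the 43.3 of Csf1r. Osteoclast markers, counted without Acp5, had 1 of 11 higher, Ctsk at 631 and 266, and 8 of 11 below the level threshold, with Calcr at 9.17 and 7.61 and Mmp9 at 10.8 and 6.66. None of the 30 measured markers of neutrophils, lymphocytes, endothelium and erythroid cells reached the level threshold. The part of macrophage RNA in the differences below was not tested. In these bulk samples a change in the number of cells of a type and a change in RNA per cell cannot be told apart.

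Lysosomal genes read higher on the array labelled Col1-Dlk1 almost throughout, mostly by less than 2-fold for the pump and by about 2-fold for the hydrolases. A difference is log2(intensity + 10.96) for the array labelled Col1-Dlk1 minus the same quantity for its wild-type counterpart. Folds are on that scale too, and for dim genes the added constant makes them smaller than plain ratios of the intensities. A gene was called when it differed by at least 2-fold and its higher intensity reached 42.8, the median of all values. The difference was above 0 in 40 of 41 genes, against 51.2% of all 12393 genes. Of the 41, 14 were called higher, against 5.15% of all genes, and 0 were called lower, against 3.9%. Among the 6795 genes that reached the level threshold the shares were 9.39% higher and 7.11% lower. These are rules of size that compare a pair of arrays, and no test was possible with 1 array per genotype.

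The median difference of the 41 genes was 0.80, and the middle 50% of them lay between 0.52 and 1.22. The median over all genes was 0.01, with the middle 50% between -0.36 and 0.40. A total of 39 of the 41 reached the level threshold, and Neu1 and Ids did not. Of the 14 called genes, 7 were under the threshold on the wild-type side and so passed it only through the array on which they were high. Among the 31 members at or above the threshold on the wild-type array, 7 were called higher, 0 lower and 30 had a difference above 0, with a median of 0.69. The corresponding background of 6051 genes had 4.35% called higher, 7.98% called lower and 45.2% above 0, with a median of -0.07. The genes closest to the 2-fold rule were Idua, called at 1.07, and Atp6v0d1, not called at 0.99.

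**Figure D1:**
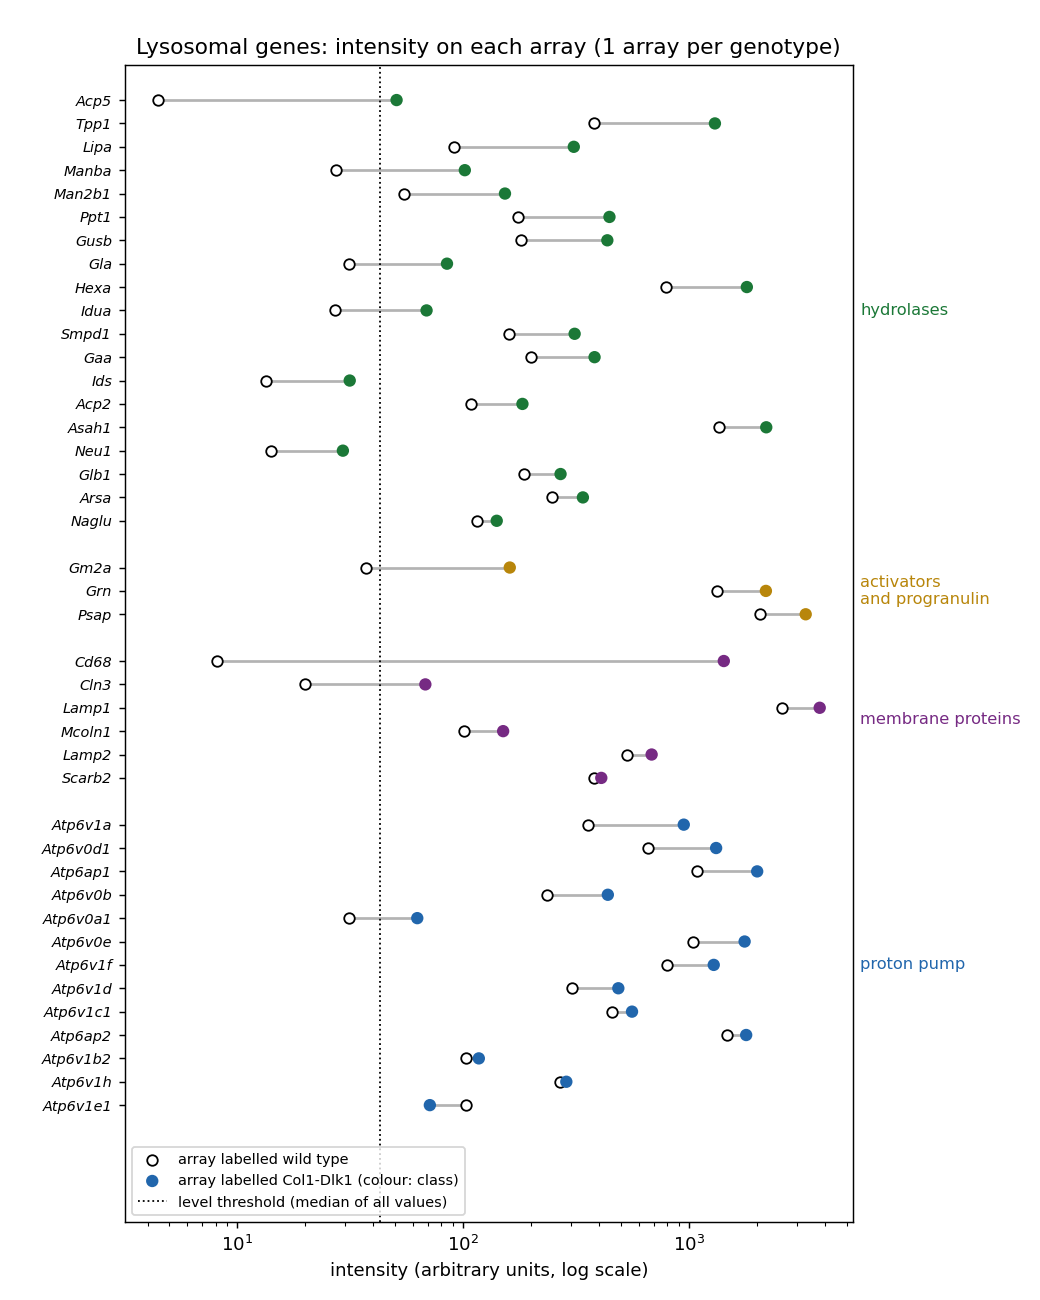
Intensity of each of the 41 lysosomal genes (rows, grouped by class) on a log axis in arbitrary units, with open circles for the array labelled wild type and filled circles for the array labelled Col1-Dlk1, 1 array each; the dotted line is the level threshold of 42.8. The filled circle lies to the right of the open one in 40 of 41 rows, the exception being Atp6v1e1, and the widest gap is that of Cd68.

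Because many lysosomal genes carry the CLEAR element, an E-box bound by the transcription factor TFEB and its relatives, the bases upstream of the gene starts were searched for it. RefSeq promoter windows (GRCm38.p6) were found for 37 of the 41 genes, and the 250 bases before each start were read on both strands. The E-box CACGTG was present in 10 of 37 members (27%), against 9.19% of 9882 measured genes with a window. The longer core TCACGTG, which contains the E-box, was present in the same number, 10 of 37 (27%), against 5.03% of the measured genes. The holders were Arsa, Gaa, Gla, Glb1 and Naglu among the hydrolases, Cln3, Lamp1 and Mcoln1 among the membrane proteins, and Atp6v0b and Atp6v1a in the pump. Of 14 members called higher 3 held the E-box, and of 23 not called higher 7 did.

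The purine-rich motif GAGGAAG, of the kind bound by the myeloid factor PU.1, was present in 5 of 37 members (13.5%), close to the 12.9% of the measured genes. The 5 were Gla, Gm2a, Lipa and Man2b1, all called higher, and Atp6v1d, which was not. The following stretches come from the 4 members with the largest differences that held a searched motif, and from Lamp1, added afterwards because it held the most E-boxes, 4 of them. Capitals mark the motif, on either strand, and each stretch is written 5′ to 3′ on the strand of the gene.
Gm2a, chr11:55097919-55097984, plus strand: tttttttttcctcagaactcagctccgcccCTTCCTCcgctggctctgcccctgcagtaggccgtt
Lipa, chr19:34527621-34527687, minus strand: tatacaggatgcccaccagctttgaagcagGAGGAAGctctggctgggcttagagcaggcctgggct
Atp6v1a, chr16:44139354-44139421, minus strand: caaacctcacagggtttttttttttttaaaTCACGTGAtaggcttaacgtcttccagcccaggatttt
Cln3, chr7:126583321-126583415, minus strand: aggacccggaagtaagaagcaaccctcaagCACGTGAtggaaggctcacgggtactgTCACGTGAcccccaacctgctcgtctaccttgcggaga
Lamp1, chr8:13159069-13159160, plus strand: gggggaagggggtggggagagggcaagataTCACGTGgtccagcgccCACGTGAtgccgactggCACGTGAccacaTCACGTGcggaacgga
A match describes letters in these windows only, and binding was not measured.

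The hydrolases differed most as a class. Of 19 measured, 10 were called higher and none lower, all 19 had a difference above 0, and the median difference was 1.07, with a range from 0.27 to 2.00. The remaining 9 comprised 7 within 2-fold and 2 below the level threshold. Over all genes 5.15% were called higher. Of the 10 called hydrolases, 4 were under the threshold on the wild-type array and passed it only through the array on which they were high. Among the 13 at or above it there, 6 were called higher, with a median of 0.91. The pump had 1 of 12 such genes called, with a median of 0.68, against 4.35% of the corresponding background. Macrophage markers, with a median of 4.16, lay in the same direction.

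Glycosidases, which remove sugars from glycoproteins, glycolipids and glycosaminoglycans, had 6 of 10 called higher. Manba, the beta-mannosidase that completes the breakdown of N-linked glycans, read 101 and 27.2, a difference of 1.56. Man2b1, the lysosomal alpha-mannosidase of the same pathway, read 153 and 54.8, a difference of 1.32. The brighter of its probe sets read 1340 and 267, a difference of 2.28, while the other was below the level threshold on both arrays and differed by 0.35, so the gene mean lies below what the bright probe set shows.

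Gusb, the beta-glucuronidase of glycosaminoglycan breakdown, read 434 and 179, a difference of 1.22. Hexa, which encodes the alpha subunit of beta-hexosaminidase and acts on gangliosides, read 1798 and 785, a difference of 1.18. Gla, the alpha-galactosidase that is deficient in Fabry disease, read 84.6 and 31.1, a difference of 1.18. For Gla the call rested on its dimmer probe set (1.65), since the brighter one read 161 and 93.2 and differed by 0.72. The dimmer one read 42.2 and 6.03 and did not itself reach the level threshold. Idua, the iduronidase of dermatan and heparan sulfate breakdown, read 68.7 and 27.1, a difference of 1.07, with its probe sets at 1.90 and 0.23.

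The other 4 glycosidases were not called. Gaa, the acid glucosidase that degrades glycogen, differed by 0.90 (381 and 199). Glb1, the lysosomal beta-galactosidase, differed by 0.52 (269 and 185), and Naglu, which acts on heparan sulfate, by 0.27 (141 and 115). Neu1, the lysosomal sialidase, averaged 29.3 and 14.1 over 3 probe sets, below the level threshold. Its brightest probe set read 106 and 36.6 and differed by 1.30.

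Sulfatases remove sulfate groups from glycosaminoglycans and sulfated lipids. Arsa, the arylsulfatase of sulfatide breakdown, read 338 and 247, a difference of 0.44. Ids, the iduronate sulfatase, averaged 31.4 and 13.3 over 5 probe sets, all with a difference above 0, and was below the level threshold. Its brightest probe set read 107 and 37.2 and differed by 1.29. Neither Arsa nor Ids was called by its gene mean. Sgsh, a sulfatase outside the listed members, was called and is given below.

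Hydrolases of lipids and lipid-modified proteins were split, with 2 of 4 called higher. Lipa, the acid lipase that frees cholesterol and fatty acids from lipoprotein lipids, read 308 and 90.6, a difference of 1.65, and its 3 probe sets differed by 1.27, 1.84 and 1.85. Ppt1, the thioesterase that removes palmitate from proteins, read 443 and 175, a difference of 1.29, with probe sets at 1.15 and 1.43. The sphingolipid enzymes were within 2-fold: Smpd1, the acid sphingomyelinase, read 311 and 160 (0.91). Asah1, the acid ceramidase, read 2191 and 1352 (0.69).

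Tpp1, a lysosomal tripeptidyl peptidase, read 1298 and 380, a difference of 1.74, and its probe sets differed by 1.68 and 1.81. Acp5, the tartrate-resistant acid phosphatase by which osteoclasts are stained, read 50.6 and 4.45. Its difference of 2.00 was the largest among the hydrolases, but it came from 1 probe set, and its higher intensity was close to the level threshold. With a pseudocount of 50 in place of 10.96 the difference of Acp5 was 0.89 and it was not called. Acp2, a widely expressed acid phosphatase of lysosomes, read 183 and 108, a difference of 0.70, with 3 of 3 probe sets above 0.

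The soluble proteins without enzyme activity of their own had 1 of 3 called. Gm2a, the activator that presents gangliosides to beta-hexosaminidase, read 160 and 36.9, a difference of 1.84, and its probe sets differed by 1.96 and 1.72. This exceeded the 1.18 of Hexa, whose product it assists. Psap, the precursor of the saposins, read 3275 and 2060, and both of its probe sets differed by about the same amount, 0.66 and 0.67. Grn, which encodes progranulin, read 2183 and 1324, a difference of 0.72. The 3 probe sets of Grn spread from 0.17 to 1.20, so its value depends on the probe set.

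The membrane proteins held a single very large difference and several small ones. Of 6 measured, 2 were called higher, and the class median was 0.54. Cd68 (macrosialin), a glycoprotein of late endosomes that belongs to the same family as Lamp1 and Lamp2 and is used as a macrophage marker, read 1422 and 8.13. Its difference of 6.23 was the largest of the 41 genes, at percentile 99.9 of all genes.

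The family members found in all lysosomes differed little by comparison. Lamp1, the major glycoprotein of the lysosomal membrane, read 3778 and 2568, a difference of 0.55. Lamp2, which also serves autophagy, read 681 and 532, a difference of 0.35, and 1 of its 4 probe sets was on the other side of 0 (-0.20). The differences of Cd68 and Lamp1 rest on 1 probe set each.

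Cln3, a membrane protein lost in juvenile Batten disease, read 67.9 and 19.9, a difference of 1.35, and was called. Mcoln1, the cation channel that releases lysosomal calcium, read 150 and 101, a difference of 0.52. Scarb2, the membrane protein that escorts glucocerebrosidase to the lysosome, read 408 and 379, a difference of 0.10 on both probe sets. Without Cd68 the membrane proteins had 1 of 5 called and a median of 0.52.

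The proton pump differed by less, with 1 of 13 subunits called higher, none lower, and a median of 0.68. All 13 reached the level threshold. The count is near the 9.39% called higher among all genes that reached it, while the median of those genes was 0.02. The V-ATPase consists of a membrane sector, V0, through which protons pass, and a cytosolic sector, V1, which hydrolyses ATP. By gene mean the 4 measured V0 subunits lay close together, between 0.75 and 0.99. With the brightest probe set of each gene they lay between 0.75 and 1.23, and Atp6v0b (1.04) and Atp6v0a1 (1.23) were called. Atp6v0d1, the subunit that couples the central stalk to the membrane ring, read 1315 and 656, a difference of 0.99, and it was called under quantile normalization (1.02), loess (1.06) and a pseudocount of 1. Atp6v0b, a subunit of the proton-carrying ring, read 436 and 235 (0.86), and Atp6v0e, a small membrane subunit, read 1758 and 1040 (0.75).

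Atp6v0a1, an isoform of the large membrane subunit that forms the proton path with the ring, averaged 62.5 and 31.1 (0.80). Of its 4 probe sets, 3 differed by 1.18 to 1.25 and the fourth, which read 4.61 and 10.2, by -0.44. Averaged over the probe sets that reached the level threshold, the difference was 1.22 and the gene was called.

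The V1 subunits were spread more widely by gene mean, from -0.47 to 1.38, with a median of 0.29 over 7 subunits. That median depends on the choice of probe sets. With the brightest probe set of each gene the V1 subunits lay between 0.09 (Atp6v1h) and 1.43 (Atp6v1a). Under that choice Atp6v1c1 was at 0.34, Atp6v1e1 at 0.52, Atp6v1d at 0.60, and Atp6v1b2 and Atp6v1f at 0.68. Atp6v1a, the catalytic subunit that hydrolyses ATP, read 945 and 358, a difference of 1.38, and its probe sets differed by 1.32 and 1.43. Atp6v1b2, its partner in the catalytic ring, read 117 and 103, a difference of 0.17. Atp6v1b2 also had an uneven set of probe sets, at 0.68, 0.02 and -0.18, the brightest being the first.

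Among the stalk and regulatory subunits, Atp6v1f read 1283 and 795 (0.68) and Atp6v1d 485 and 301 (0.67). Atp6v1c1, which takes part in the reversible assembly of the pump, read 558 and 454 (0.29), and Atp6v1h read 286 and 267 (0.09). Atp6v1e1, a subunit of the peripheral stalk, was the only member with a gene mean below 0, at 71.1 and 102 (-0.47). Its probe sets disagreed: the brightest read 1134 and 788 and differed by 0.52, another read 25.4 and 122 and differed by -1.87, and the last was at 2.28 and 2.72. The direction of Atp6v1e1 therefore depends on the probe set, and with the brightest alone 41 of 41 genes had a difference above 0.

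Of the accessory subunits, Atp6ap1, which acts in assembly of the pump, read 1997 and 1084 (0.87), and Atp6ap2, the prorenin receptor, read 1786 and 1462 (0.29). All 3 probe sets of Atp6ap2 were above 0, at 0.12, 0.15 and 0.59.

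**Figure D2:**
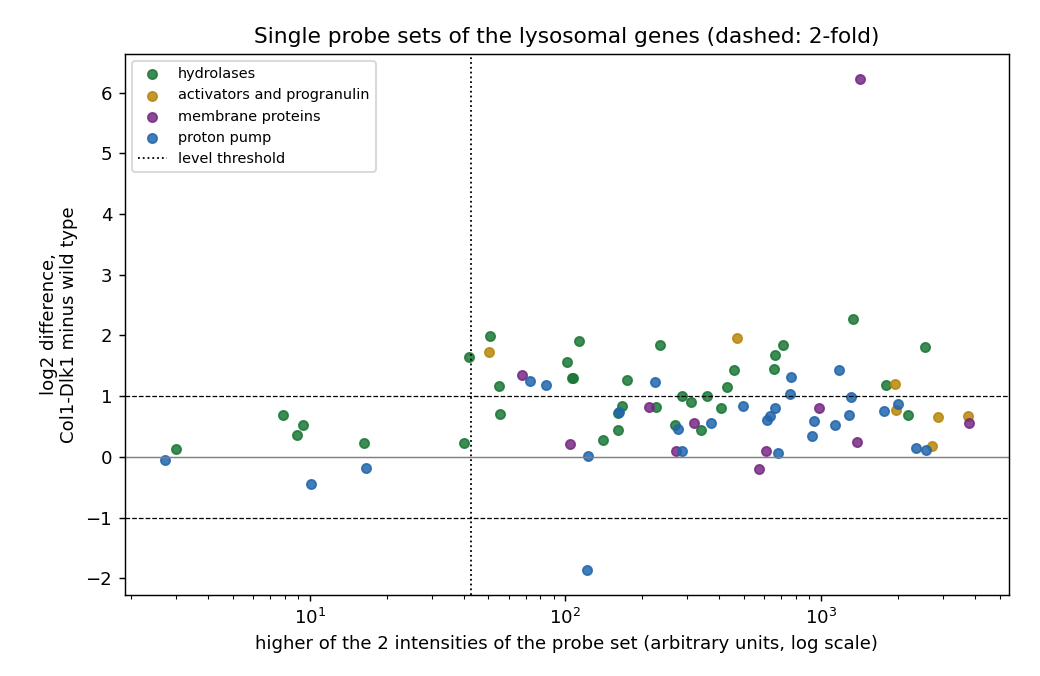
Each of the 83 probe sets of the lysosomal genes, by the higher of its intensities on the 2 arrays (log axis, arbitrary units) and its log2 difference, coloured by class; the dotted line is the level threshold and the dashed lines mark 2-fold. Of the 73 probe sets that reached the threshold 71 lie above 0, and the lowest point is a probe set of Atp6v1e1.

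Several probe sets of a gene read the same RNA, so they say nothing on the spread between cultures. Of 83 member probe sets, 78 differed in the positive direction, and among the 73 that reached the level threshold 71 did, the exceptions being the probe sets of Atp6v1e1 and Lamp2 named above. In 21 of the 25 genes with several probe sets, all of them lay on the same side of 0. Within a member gene, probe sets differed from each other by a median of 0.44 over 64 pairings, against 0.41 over 12821 pairings across all genes. The gap between the medians of the hydrolases (1.07) and the pump (0.68) was smaller than that. Gaps between single probe sets do not measure the spread of a class median, so this does not show how firm the class gap is.

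**Figure D3:**
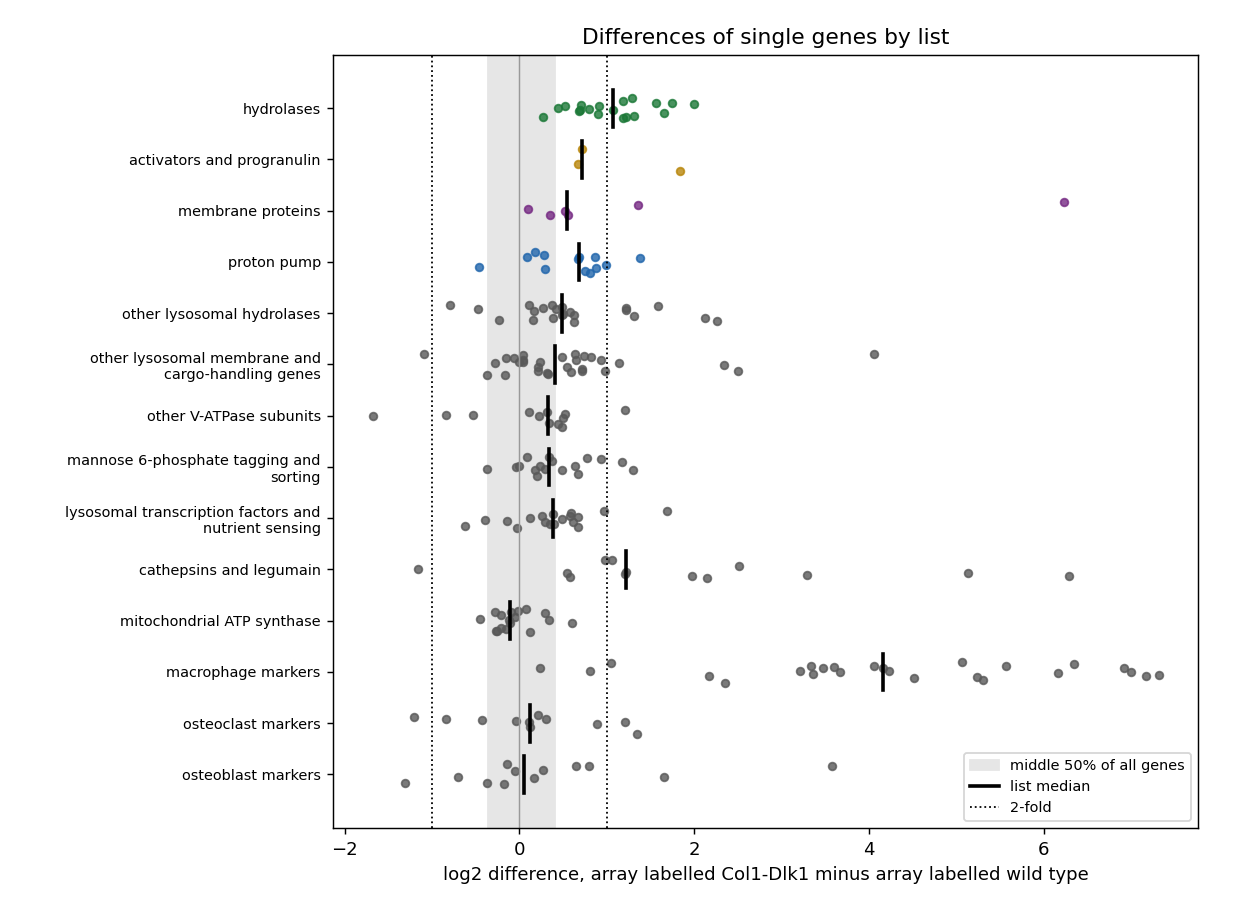
Log2 difference of single genes (points) in the 4 classes of lysosomal genes (coloured) and in other lists (grey), with black bars for list medians, dotted lines at 2-fold and a grey band for the middle 50% of all genes. The hydrolase points all lie above 0 with a median of 1.07, the mitochondrial ATP synthase points cluster around -0.11, and the macrophage markers reach 7.32.

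Apart from the cathepsins and legumain, which are given last, the other lists of lysosomal genes had medians above 0 and below those of the 4 classes. For the counts that follow, 5.15% of all genes were called higher, and 9.39% of those that reached the level threshold. Of 22 other hydrolases and related proteins measured, 6 were called higher and 0 lower, and the median was 0.48. Ctsa, called at 1724 and 734 (1.22), is in this list and is counted again among the cathepsins below. Hgsnat, the acetyltransferase of heparan sulfate breakdown, read 798 and 157 (2.27), and Smpdl3a, a relative of acid sphingomyelinase, read 244 and 47.7 (2.12). Sgsh, a sulfatase of the same heparan sulfate pathway, read 65.6 and 14.6 (1.58), and Pla2g15, a lysosomal phospholipase, read 238 and 89.4 (1.31). Of the 6 called genes, 2 read less than 42.8 in wild type, Sgsh among them.

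Of 30 other membrane and cargo-handling genes, 4 were called higher and 0 lower, and the median was 0.41. The largest difference was that of Laptm5, a lysosomal protein of blood cells that is also in the macrophage list, at 476 and 18.4 (4.05). Mcoln2, a relative of Mcoln1, read 55.8 and 0.84 (2.50), and Slc11a1, the metal transporter of macrophage phagosomes, read 127 and 16.3 (2.34). Npc1, the cholesterol exporter, read 118 and 47.6 (1.14). The other 3 of the 4 called genes read less than 42.8 in wild type. Laptm5, Mcoln2 and Slc11a1 thus passed the level threshold solely by their intensity on the array labelled Col1-Dlk1.

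Pump subunits outside the list, which include isoforms restricted to certain tissues, had 1 of 12 called higher and 6 below the level threshold, with a median of 0.33. For a list of this size that count is near the 5.15% called higher over all genes. The called gene was Rnasek, a pump-associated protein, at 348 and 144 (1.21). Tcirg1, the a-subunit isoform that osteoclasts need to acidify bone, read 203 and 186, a difference of 0.12. The osteoclast isoform Atp6v0d2 was not analysed here.

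Genes that tag and sort lysosomal enzymes had 2 of 17 called higher, 0 called lower and a median of 0.33. For a list of this size the count is not far from the 5.15% called higher over all genes. Igf2r, the large mannose 6-phosphate receptor, read 461 and 198 (1.18), and Ap1b1, an adaptor subunit of the route from Golgi to endosome, read 403 and 157 (1.30). M6pr, the small mannose 6-phosphate receptor, was not called, at 543 and 338 (0.67), nor was Sumf1, which activates the sulfatases, at 203 and 101 (0.94).

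Transcription factors and nutrient sensors of the lysosome had 0 of 18 called in either direction, against 5.15% higher and 3.9% lower over all genes. Their median was 0.39, and 5 of them lay below the level threshold. These 5 included Tfeb at 41.4 and 23.8 (0.59), Mitf at 41.6 and 16.0 (0.96) and Tfec at 34.8 and 3.23. The difference of Tfec, 1.69, was the largest of the list, and with no level threshold 1 gene of the list was called higher. Among those past the threshold, Lamtor4 of the Ragulator complex differed by 0.67 and the kinase gene Mtor by -0.40. The largest negative value was that of Max, at 88.7 and 143 (-0.63).

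The mitochondrial ATP synthase is the other large rotary ATPase of the cell. Its 17 genes had 0 called in either direction and a median of -0.11, with 5 of 17 above 0, while 12 of 13 pump subunits of the V-ATPase were above 0. Cathepsins and legumain, a group of lysosomal proteases, had 9 of 13 called higher, against 5.15% of all genes. Their median was 1.22, close to the 1.07 of the hydrolases. Their largest differences were those of Ctss (6.29) and Ctsc (5.13), and Ctsc read 996 and 17.8. In wild type 4 of the 9 called genes, Ctss (15.6) and Ctsc among them, read less than 42.8. Those 4 passed the level threshold solely by their intensity on the other array.

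**Figure D4:**
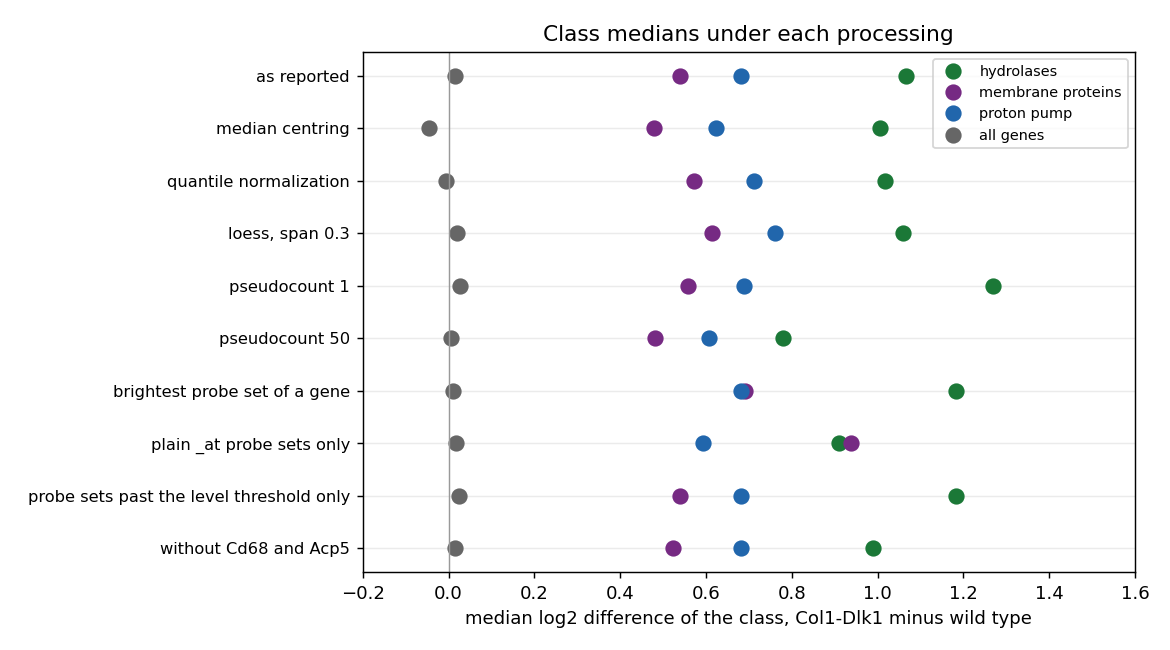
Median log2 difference of the hydrolases, membrane proteins, proton pump subunits and all genes (x axis) under each scaling, pseudocount and choice of probe sets (rows). The class medians stay between 0.48 and 1.27 while the median of all genes stays between -0.05 and 0.03, and the hydrolases are the highest class in every row except the one with plain probe sets alone.

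The order of the classes was hydrolases, pump and membrane proteins under every scaling and pseudocount shown in the plot of class medians. It changed with the choice of probe sets: with plain _at probe sets alone the membrane proteins, then 4 genes, had a median of 0.94 and the hydrolases, then 15, a median of 0.91. With the brightest probe set of each gene the membrane proteins (0.69) and the pump (0.68) were close together. The hydrolase median was above that of the pump under each of these settings, by the smallest margin with a pseudocount of 50, at 0.78 against 0.61.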

How the data were processed

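RNA of 2 pooled samples was measured on Affymetrix mouse arrays. Per the submitters' processing notes, the authors used Affymetrix Expression Console 1.1.1 to produce the deposited intensity of each probe set, which is on a linear scale. Its algorithm and scaling are not given in the sources read here. The table held 22690 probe sets, 64 of them controls, and 20380 others named 1 gene. Intensities were converted to log2(intensity + 10.96), the 25th percentile of all values, and probe sets of a gene were averaged on that scale. Intensities printed for such genes are these averages turned back to the linear scale. The level threshold is the median of all values and the fold rule 2. The genotypes have 1 array each, which allows no test and limits the precision. Every listed member was accounted for. Of each other list up to 4 genes past the threshold with the largest differences, and fixed markers, were to be named; others named were chosen after their values were seen. Members and lists were chosen with earlier results of these data known. The steps were tested on simulated data. The strand of the promoter windows was checked on 1671 overlapping pairs of opposite strand, all of which matched after reverse complementation. Promoter sequences and coordinates are from RefSeq, GRCm38.p6, and no build is given for the arrays. Alternatives covered scaling, pseudocount, level, fold, probe sets and symbols. Tables were made in Python 3.11.15 with pandas 2.3.3 and numpy 2.4.6, loess curves with statsmodels 0.14.6 and figures with matplotlib 3.10.9.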

Additional observations from a re-analysis of the deposited data

How the results depend on the processing

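No paired analysis was possible because there is a single array for either genotype. Leaving out a replicate was not possible for the same reason. Of 41 genes, 14 were called higher as reported. The count was 9 with a pseudocount of 50, 7 with the level threshold at the 75th percentile of all values, 27 with a 1.5-fold rule and 5 with a 3-fold rule. It lay between 12 and 17 under the other alternatives, and no gene was called lower under any. Class medians shifted by no more than 0.41. That is the median gap between single probe sets of a gene, and it does not measure the spread of a class median. With a pseudocount of 50 Gla, Idua, Manba, Acp5 and Cln3 were not called. With the brightest probe set of each gene Ids, Neu1, Atp6v0a1 and Atp6v0b were called and Gla was not. With plain _at probe sets Grn was called (1.20), Man2b1 was not (0.35), and 31 of the 41 genes could be measured. Averaging only probe sets past the level threshold, and leaving out Cd68 and Acp5, were alternatives chosen after seeing the data, and gave 16 and 12 genes called higher. The other membrane and cargo-handling genes had 4 called higher as reported, 1 with the stricter level threshold, 2 with plain _at probe sets, 7 with the brightest and 11 with the 1.5-fold rule. The tagging and sorting genes had 2 as reported, 4 with plain _at probe sets, 6 with the 1.5-fold rule and 0 with the 3-fold rule, which left 2 of the 6 other hydrolases. Over all genes, the counts called higher and lower were 638 and 483 as reported, 793 and 639 with a pseudocount of 1, 376 and 264 with a pseudocount of 50, 944 and 772 with no level threshold, 331 and 236 with the stricter level threshold, 1307 and 1154 with the 1.5-fold rule and 327 and 204 with the 3-fold rule. Signal near the level threshold limits the values of Acp5, Idua, Gla, Cln3, Neu1 and Ids.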
